A study of Homo sapiens with 15 samples.

Results

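The genes described here are 10 that encode extracellular proteases and their inhibitors: the matrix metalloproteinases MMP1, MMP3, MMP10, MMP2 and MMP14, the tissue inhibitors TIMP1, TIMP2 and TIMP3, and the related proteases ADAMTS1 and ADAM17. They were chosen by symbol, with earlier results of these data known. The shares of all genes set beside their counts are thus a description and no test. By Ensembl identifier 10 of 10 were found in a table of 57736 genes. They passed the filter on low counts, which kept 13516 genes for testing. The cells were IMR90, a line of human fetal lung fibroblasts, and 15 libraries of 3′ end tags fall into 5 groups of 3. In R298P add-back cells, RAS was expressed from a retrovirus, METTL14 was knocked down with an siRNA and a lentivirus supplied METTL14 with the R298P change. Wild-type add-back cells had the same RAS and siRNA with wild-type METTL14 from the lentivirus, and knockdown cells had RAS and the siRNA with a vector in its place. SiControl RAS cells had RAS and an siRNA with no target, and control cells had an empty retrovirus and that same siRNA. The siRNA was first given on day 4 after the retrovirus, a second dose with the lentivirus followed on the next day, and RNA was taken 48 hours later. The labels name neither the RAS used nor any lentiviral vector in siControl RAS and control cells. Differences of knockdown and add-back cells from these groups may thus include an effect of the lentivirus. Such an effect cannot be told apart from that of the METTL14 siRNA. Below, a change in or with the knockdown means knockdown against siControl RAS cells. The labels also leave unsaid if replicates were grown separately, so a p-value measures the spread between libraries, which may be technical.

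Matrix metalloproteinases are zinc-dependent enzymes that are made as inactive precursors and cut collagens, proteoglycans and other proteins outside the cell once their propeptide is removed. TIMPs bind the active site of these enzymes, and TIMP3 also inhibits ADAM17 and several ADAMTS proteases. Fibroblasts that express oncogenic RAS enter senescence, a lasting stop of division, and secrete cytokines and proteases; MMP1, MMP3 and MMP10, whose genes lie close together, are well-known parts of that secretion. METTL14 works together with METTL3 as the enzyme that writes N6-methyladenosine on RNA, and R298P is a METTL14 change known from tumours that lowers the activity of that enzyme.

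The stretch of promoter sequence shown here is that of MMP10, the gene with the largest fitted changes of the 10 both in siControl RAS against control and in knockdown against siControl RAS cells. Capitals mark a match to the AP-1 motif TGANTCA, from base -67 to -61 before the annotated start, and a match to the TATA motif TATAAA, from base -31 to -26. The window is chr11:102780629-102780748 on the minus strand of GRCh38.p14, from RefSeq, and holds 120 bases that end just before the start.
MMP10: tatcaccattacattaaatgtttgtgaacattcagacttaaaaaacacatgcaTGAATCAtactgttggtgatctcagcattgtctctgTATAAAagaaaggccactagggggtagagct
Both motifs were searched on both strands of the 250 bases before the start. Of 35116 RefSeq promoters, 6.57% held TGANTCA and 10.7% held TATAAA in that window. The table held promoters of 5 of the 10 genes, and in MMP14, TIMP1, TIMP3 and ADAM17 neither of these letter strings was found. Promoters of MMP1, MMP2, MMP3, TIMP2 and ADAMTS1 were not in it, so MMP10 cannot be compared here with MMP1 and MMP3. The MMP10 match has A at the open position N, and other forms of the AP-1 site were not searched. The core motif of ETS factors, GGAA, was found in all 5 and in 92.7% of all promoters, so it sets none of them apart. A match describes the letters of the window and was not tested for binding.

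Total counts per library ran from 4917661 to 7763084, and 1 count corresponded to 0.136 to 0.203 normalised CPM (counts scaled by library total and TMM factor), the unit of every level below. METTL14, the gene that was targeted, had 892, 907 and 1038 CPM in R298P add-back and 508, 564 and 564 CPM in wild-type add-back libraries, against 9.35, 4.94 and 3.94 CPM in knockdown, 26.2, 19.3 and 20.5 CPM in siControl RAS and 19.1, 21.2 and 23.3 CPM in control libraries. Both add-backs thus held far more METTL14 tags than control cells, and R298P add-back libraries held more than wild-type ones in each library. Whether viral and endogenous METTL14 transcripts yield tags equally was not tested. Tags counted for HRAS were lower in siControl RAS cells (40.2 ± 4.14 CPM) than in control cells (57.8 ± 5.28 CPM, SD, n = 3 each). Whether tags of the retroviral RAS would be counted for HRAS is not known, so HRAS tags do not check that RAS. Summed tags of 10 fibroblast markers were 20038 to 21188 CPM in R298P add-back, 20598 to 21949 CPM in wild-type add-back, 18278 to 19107 CPM in knockdown, 22219 to 23255 CPM in siControl RAS and 10608 to 10795 CPM in control libraries. CDH1, KRT5 and KRT14 of epithelium, CDH5 and ERG of endothelium and CD163, LYZ, CD3E and ITGAM of leukocytes had no count in any library. Summed tags of 10 epithelial markers were 52.6 to 70.2 CPM in siControl RAS and 137.5 to 151.3 CPM in control libraries, those of 6 endothelial markers 31.7 to 35.5 CPM in siControl RAS and 14.4 to 24.0 CPM in control libraries, and those of 9 leukocyte markers 14.2 to 23.7 CPM in siControl RAS and 2.97 to 8.28 CPM in control libraries. In the other 3 groups the sums were 70.9 to 95.9 CPM for the epithelial list, 34.9 to 46.8 CPM for the endothelial list and 6.02 to 14.8 CPM for the leukocyte list. Over all libraries the gene with most counts was KRT18 (3618) in the epithelial, TEK (2562) in the endothelial and CD68 (963) in the leukocyte list. Whether these tags came from the fibroblasts or from other cells was not tested.

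All 5 MMPs rose with RAS and were lower in knockdown than in siControl RAS cells. In knockdown cells 4 of them stayed above the control level. Of the 10 genes, 8 were higher and 1 lower in siControl RAS than in control cells (edgeR quasi-likelihood test, Benjamini-Hochberg adjusted p under 0.05 over all genes), where 24% of all genes tested were called higher and 21.9% lower. In knockdown against siControl RAS cells, 6 were lower and 2 higher, where 8.06% of all genes were called lower and 7.47% higher. In knockdown against control cells, 8 of the 10 were still higher and none was lower, against 19.2% and 16.7% of all genes. The median log2 fold change of the 10 was 0.90 for RAS and -0.44 for the knockdown, where the median over all genes tested was -0.0037 and -0.0028. For each of these comparisons the libraries of the 2 groups did not overlap for 9, 9 and 8 of the 10 genes, which held for 54.2%, 30% and 45.4% of all genes. The comparisons share libraries, so they are not independent of each other, and in RNA from whole cultures fewer cells that express a gene and less RNA per cell cannot be told apart.

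**Figure D1:**
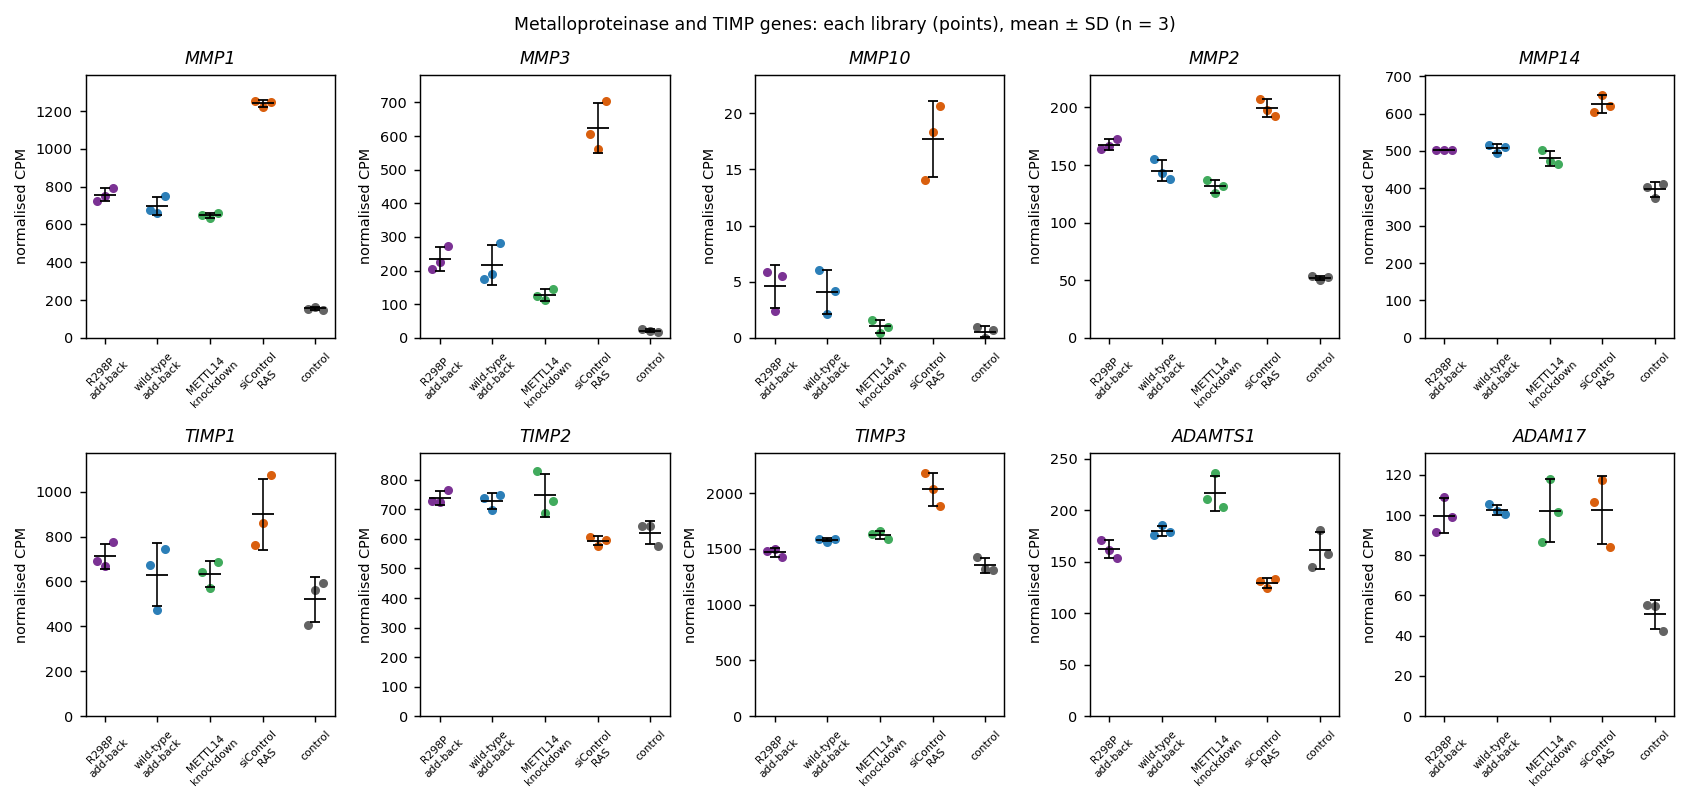
Normalised CPM of each gene in every library, with points for libraries and bars for the mean ± SD (n = 3) in R298P add-back, wild-type add-back, knockdown, siControl RAS and control cells. MMP1, MMP3, MMP10, MMP2 and MMP14 were highest in siControl RAS libraries, whereas ADAMTS1 was lowest there (129 CPM on average).

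MMP1 (ENSG00000196611), the interstitial collagenase that cuts fibrillar collagen, was the most abundant MMP transcript in each RAS group. It had 1253, 1220 and 1250 CPM in siControl RAS libraries, against 155, 166 and 146 CPM in control libraries. The groups lay far apart, a 7.97-fold rise with RAS (log2 fold change 2.99, SE 0.06, edgeR adjusted p = 3.52e-28). In knockdown libraries MMP1 fell to 649, 635 and 662 CPM, 1.91-fold below siControl RAS libraries (log2 -0.94, SE 0.06, edgeR adjusted p = 1.01e-13). The knockdown level was narrow in its spread and still 4.17-fold above that of control cells (edgeR adjusted p = 1.72e-23). With METTL14 supplied again, MMP1 was 726, 753 and 795 CPM in R298P add-back and 677, 663 and 753 CPM in wild-type add-back libraries. Every add-back library was above every knockdown library, but neither difference passed the test: the R298P add-back gave log2 0.22 (95% interval 0.096 to 0.35, edgeR adjusted p = 0.0794) and the wild-type add-back log2 0.10 (-0.024 to 0.23, edgeR adjusted p = 0.782). DESeq2 called the R298P difference (adjusted p = 0.0103). From high to low the order was siControl RAS, R298P add-back, wild-type add-back, knockdown and control, and only the add-backs overlapped among neighbours.

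MMP3 (ENSG00000149968), stromelysin-1, which cuts proteoglycans and fibronectin and activates other MMP precursors, moved more than MMP1 in both directions. SiControl RAS libraries held 605, 561 and 704 CPM, against 25.6, 19.1 and 18.6 CPM in control libraries. That was a 29.4-fold rise with no overlap (log2 4.88, SE 0.23, edgeR adjusted p = 7.88e-09). Knockdown libraries had 126, 112 and 146 CPM, 4.87-fold below siControl RAS cells (log2 -2.28, SE 0.19, edgeR adjusted p = 9.21e-06) and 6.04-fold above control cells (edgeR adjusted p = 3.38e-06). R298P add-back libraries reached 205, 225 and 274 CPM and wild-type add-back libraries 174, 189 and 283 CPM, all above the knockdown libraries and all below every siControl RAS library. The MMP3 differences from knockdown were log2 0.87 for R298P (95% interval 0.44 to 1.31, edgeR adjusted p = 0.0793) and 0.75 for wild type (0.32 to 1.19, edgeR adjusted p = 0.235), so neither was called. For MMP3 this depended on the model, as DESeq2 gave an adjusted p of 0.00264 for R298P and 0.0188 for wild type. A fit on the R298P add-back and knockdown libraries alone also called the R298P difference (edgeR adjusted p = 0.000514). The group means of MMP3 had the same order as those of MMP1, again with overlap only between the add-backs.

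MMP10 (ENSG00000166670), stromelysin-2, a close relative of MMP3 with similar substrates, was scarce and had the largest ratio between its highest and lowest group means of the 10. Its raw counts in siControl RAS libraries were 103, 98 and 116, against 6, 0 and 4 in control libraries, or 14.03, 18.4 and 20.7 CPM against 0.938, 0 and 0.665 CPM. RAS raised it 31.6-fold by the fitted value (log2 4.98, SE 0.65, edgeR adjusted p = 1.20e-08), a size that rests on 10 control counts and was log2 5.64 without control library 1. Knockdown libraries had 8, 3 and 6 counts (1.63, 0.463 and 0.985 CPM), 17.5-fold below siControl RAS libraries (log2 -4.13, SE 0.56, edgeR adjusted p = 7.19e-07). MMP10 was the one MMP of the 5 whose knockdown and control libraries overlapped (log2 0.85, 95% interval -0.66 to 2.36, edgeR adjusted p = 0.386), and at this depth no difference between them was detectable. R298P add-back libraries had 37, 14 and 27 counts (5.88, 2.39 and 5.47 CPM), all above those of knockdown cells (log2 2.18, SE 0.58, edgeR adjusted p = 0.0487). That MMP10 call did not hold without knockdown library 2 or 3 or R298P library 1 or 3 (edgeR adjusted p = 0.261, 0.173, 0.215 and 0.166), nor in a fit on those groups alone (0.137). Wild-type add-back libraries had 30, 14 and 22 counts (6.06, 2.10 and 4.13 CPM), with no overlap with knockdown libraries and log2 2.00 (SE 0.59, edgeR adjusted p = 0.144, and 0.0374 with no filter on low counts). The order of the MMP10 group means was that of MMP1 and MMP3, but knockdown and control libraries overlapped as well as the add-backs. MMP1, MMP3 and MMP10 are paralogs, so reads could be shared between them, and how such reads were assigned was not tested.

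MMP2 (ENSG00000087245), gelatinase A, which cuts denatured collagen and basement membrane collagen, had 208, 198 and 192 CPM in siControl RAS libraries, against 53.3, 49.9 and 53.2 CPM in control libraries. It rose 3.82-fold with RAS (log2 1.93, SE 0.09, edgeR adjusted p = 2.45e-19). Knockdown libraries had 137, 126 and 132 CPM, 1.52-fold below siControl RAS libraries with no overlap (log2 -0.60, SE 0.08, edgeR adjusted p = 1.39e-06) and 2.52-fold above control libraries. MMP2 was 164, 167 and 173 CPM in R298P add-back libraries and 155, 143 and 138 CPM in wild-type add-back libraries, so that all 5 groups stood apart without overlap, in the order seen for MMP1. The R298P difference from knockdown was called (log2 0.35, SE 0.08, edgeR adjusted p = 0.0235), but not in a fit on those groups alone (0.0767) or without any 1 of knockdown libraries 2 and 3 and R298P libraries 1, 2 and 3, where adjusted p was 0.0669 to 0.136. The wild-type difference was log2 0.14 (95% interval -0.028 to 0.31, edgeR adjusted p = 0.761). R298P add-back libraries also remained below siControl RAS libraries (log2 -0.25, edgeR adjusted p = 0.0407), a call lost without any 1 of the 6 libraries (adjusted p = 0.0576 to 0.165), with upper-quartile scaling (0.0817) and with no filter (0.101).

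MMP14 (ENSG00000157227), the membrane-anchored MMP that activates the MMP2 precursor on the cell surface, was the most abundant MMP transcript in control cells and the least responsive of the 5. It had 605, 651 and 621 CPM in siControl RAS libraries, against 404, 375 and 412 CPM in control libraries, a 1.57-fold rise (log2 0.65, SE 0.06, edgeR adjusted p = 7.33e-11). Knockdown libraries had 504, 472 and 466 CPM, 1.30-fold below siControl RAS libraries (log2 -0.38, SE 0.06, edgeR adjusted p = 1.95e-05) and 1.21-fold above control libraries (edgeR adjusted p = 0.000597). The R298P add-back libraries lay within 502 to 503 CPM and the wild-type add-back libraries within 494 to 516 CPM, and both overlapped with knockdown libraries. MMP14 differed from knockdown by log2 0.07 with R298P (95% interval -0.061 to 0.19) and 0.08 with wild type (-0.051 to 0.20), with edgeR adjusted p of 0.865 for R298P and 0.886 for wild type. From high to low the MMP14 order was siControl RAS, wild-type add-back, R298P add-back, knockdown and control, and R298P add-back overlapped with both of its neighbours.

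**Figure D2:**
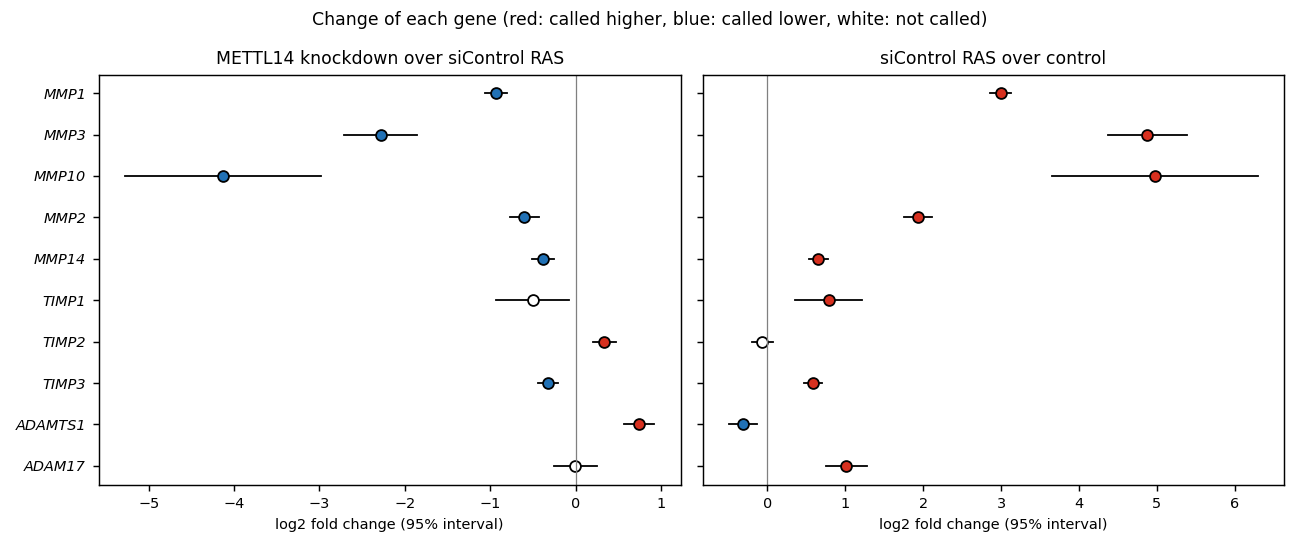
Fitted log2 fold change of each gene with its 95% interval, for knockdown over siControl RAS cells (left) and siControl RAS over control cells (right); filled points were called and white points were not. MMP10, MMP3 and MMP1 stand out in both panels, while TIMP2 and ADAMTS1 lie above 0 on the left.

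The 3 TIMP genes did not move as a group. TIMP1 (ENSG00000102265), which inhibits most secreted MMPs, had 762, 860 and 1073 CPM in siControl RAS libraries, against 408, 560 and 592 CPM in control libraries. It rose 1.73-fold (log2 0.79, SE 0.19, edgeR adjusted p = 0.00636), with a wide spread among the libraries of each group. Knockdown libraries had 642, 571 and 689 CPM and lay below every siControl RAS library, but the TIMP1 difference was not called (log2 -0.50, 95% interval -0.93 to -0.074, edgeR adjusted p = 0.120, and 0.0231 in a fit on those groups alone). TIMP1 had 691, 669 and 776 CPM in R298P add-back and 671, 475 and 746 CPM in wild-type add-back libraries, both overlapping with knockdown libraries (edgeR adjusted p = 0.906 with R298P and 0.999 with wild type). The TIMP1 means ran in the order siControl RAS, R298P add-back, knockdown, wild-type add-back and control, and each group overlapped with the next.

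TIMP2 (ENSG00000035862), which inhibits MMP2 and also takes part with MMP14 in its activation, was the one gene of the 10 not called in siControl RAS against control cells. It had 606, 577 and 597 CPM in siControl RAS libraries, against 643, 645 and 576 CPM in control libraries, which overlapped (log2 -0.07, 95% interval -0.20 to 0.069, edgeR adjusted p = 0.444). In knockdown libraries TIMP2 was higher, at 828, 688 and 728 CPM, a 1.26-fold rise over siControl RAS libraries (log2 0.33, SE 0.07, edgeR adjusted p = 0.00033) that also set it 1.204-fold above control libraries (edgeR adjusted p = 0.00149). With METTL14 supplied again, TIMP2 had 727, 725 and 765 CPM with R298P and 740, 699 and 750 CPM with wild type, which differed from knockdown by log2 -0.02 (95% interval -0.15 to 0.12) and -0.04 (-0.17 to 0.099), neither of them called by edgeR (adjusted p = 0.979 and 0.977). TIMP2 means were highest in knockdown, then R298P add-back, wild-type add-back, control and siControl RAS cells, and of these neighbours only wild-type add-back and control did not overlap.

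TIMP3 (ENSG00000100234), which binds to the matrix and inhibits ADAM17 and ADAMTS enzymes as well as MMPs, gave the most tags of the 10 genes in every group. SiControl RAS libraries held 2179, 2038 and 1882 CPM, against 1429, 1323 and 1308 CPM in control libraries, a 1.502-fold rise (log2 0.59, SE 0.06, edgeR adjusted p = 7.12e-11). Knockdown libraries had 1631, 1661 and 1587 CPM, 1.25-fold below siControl RAS libraries (log2 -0.32, SE 0.06, edgeR adjusted p = 4.86e-05) and 1.202-fold above control libraries. TIMP3 was lower still in R298P add-back libraries, at 1481, 1496 and 1424 CPM, than in knockdown libraries, without overlap, but this was not called (log2 -0.15, 95% interval -0.26 to -0.036, edgeR adjusted p = 0.292). Wild-type add-back libraries had 1587, 1564 and 1592 CPM and overlapped with knockdown libraries at their lower end (log2 -0.04, -0.15 to 0.072, edgeR adjusted p = 0.956). The TIMP3 order was siControl RAS, knockdown, wild-type add-back, R298P add-back and control, in which knockdown overlapped with wild-type add-back and R298P add-back with control.

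ADAMTS1 (ENSG00000154734), a secreted protease that cuts the proteoglycans aggrecan and versican, went the other way from the MMPs. It had 131, 124 and 133 CPM in siControl RAS libraries, against 145, 181 and 157 CPM in control libraries, a 1.24-fold fall without overlap (log2 -0.32, SE 0.09, edgeR adjusted p = 0.0032). Knockdown libraries had the most ADAMTS1, 210, 236 and 203 CPM, 1.68-fold above siControl RAS libraries (log2 0.74, SE 0.09, edgeR adjusted p = 4.63e-08) and 1.35-fold above control libraries (edgeR adjusted p = 0.000135). R298P add-back libraries had 171, 162 and 154 CPM and were below knockdown libraries (log2 -0.42, SE 0.09, edgeR adjusted p = 0.00542), a call that was lost without knockdown library 2 (0.0718) or R298P library 3 (0.0529). Wild-type add-back libraries had 176, 185 and 178 CPM, also below knockdown libraries without overlap, and were not called (log2 -0.27, 95% interval -0.44 to -0.091, edgeR adjusted p = 0.264). ADAMTS1 remained above siControl RAS libraries in both add-backs, by log2 0.33 with R298P (edgeR adjusted p = 0.00959) and 0.48 with wild type (edgeR adjusted p = 0.000138), and the R298P call was lost without siControl RAS library 2 (0.0505) or R298P library 1 (0.0585). The order of ADAMTS1 means was knockdown, wild-type add-back, R298P add-back, control and siControl RAS, with overlap between neighbours only for R298P add-back and control.

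ADAM17 (ENSG00000151694), the membrane protease that sheds TNF and EGF-receptor ligands from the cell surface, rose with RAS and was called in no comparison among the RAS groups. It had 106, 117 and 84.0 CPM in siControl RAS libraries, against 55.2, 54.7 and 42.4 CPM in control libraries, a 2.02-fold rise (log2 1.01, SE 0.13, edgeR adjusted p = 4.10e-08). Knockdown libraries had 86.8, 118 and 102 CPM and overlapped with siControl RAS libraries, with a difference near 0 and a 95% interval of log2 -0.25 to 0.25 (edgeR adjusted p = 0.991). ADAM17 had 91.4, 109 and 98.9 CPM in R298P add-back and 105, 102 and 100 CPM in wild-type add-back libraries, and all 4 RAS groups overlapped with their neighbours in the order of means. In GENCODE, exons of ADAM17 overlap those of IAH1 on the opposite strand, which had 3745 counts over all libraries where ADAM17 had 8069. No source used here says if counting was by strand, so reads of the shared stretch may have been counted for either gene.

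**Figure D3:**
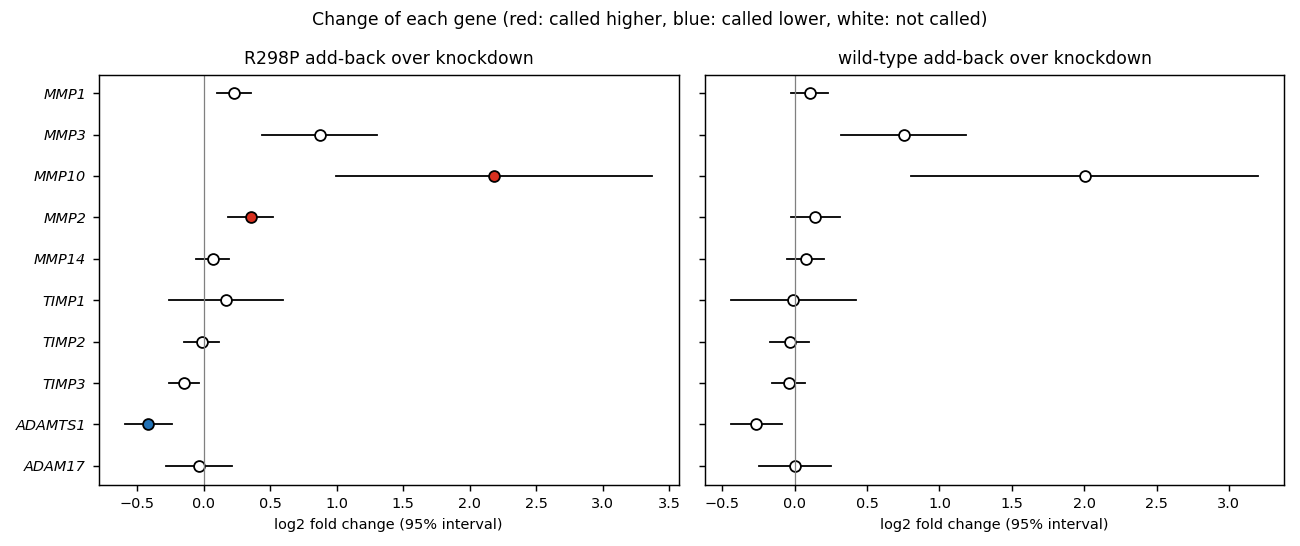
Fitted log2 fold change of each gene with its 95% interval, for R298P add-back (left) and wild-type add-back (right) over knockdown cells; filled points were called and white points were not. MMP10 and MMP2 were called higher and ADAMTS1 lower with R298P, and none of the 10 was called with wild type.

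Supplying METTL14 again moved few of these genes past the threshold. In R298P add-back against knockdown cells edgeR called 2 of the 10 higher and 1 lower, where 0.54% of all genes tested were higher and 0.555% lower, and the libraries did not overlap for 6 of the 10 (15% of all genes). In wild-type add-back against knockdown cells edgeR called 0 of 10, where 0.326% of all genes tested rose and 0.296% fell past that threshold, and the libraries did not overlap for 5 of the 10 (13% of all genes). At an unadjusted edgeR p under 0.05, 4 of the 10 were higher and 2 lower with R298P, where 4.59% of all genes were higher and 4.44% lower, and 2 were higher and 1 lower with wild type, where 3.99% were higher and 3.57% lower. DESeq2 called 4 higher with R298P, MMP1, MMP2, MMP3 and MMP10, and 1 lower, ADAMTS1. Of the 12396 genes with a DESeq2 adjusted p for R298P, 0.815% (101 genes) were higher and 0.855% lower. With wild type DESeq2 called 1 higher, MMP3, and it gave no adjusted p for MMP10. Only 7435 genes had a DESeq2 adjusted p for wild type, of which 0.982% (73 genes) were higher and 0.646% lower. The DESeq2 shares of the add-backs thus have unlike bases. The median log2 fold change of the 10 was 0.12 with R298P and 0.04 with wild type, where the median over all genes was 0.0037 and 0.00037. Both comparisons use the same knockdown libraries.

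The add-backs were also compared with each other and with siControl RAS cells. Between R298P and wild-type add-back cells edgeR called 0 of the 10 genes, where 0.0074% of all genes were higher and 0.0148% lower. DESeq2 called 0, with no adjusted p for MMP10. Of the 3714 genes with a DESeq2 adjusted p for this comparison, 0.135% were higher and 0.215% lower. At an unadjusted p under 0.05 MMP2 alone was higher (log2 0.21, 95% interval 0.038 to 0.38, edgeR adjusted p = 0.98), where 2.43% of all genes were higher and 2.49% lower. The libraries of these groups did not overlap for 3 of the 10 genes, where 11.7% of all genes did not. The intervals for R298P over wild type were log2 -0.0071 to 0.25 for MMP1, -0.31 to 0.55 for MMP3 and -0.82 to 1.17 for MMP10, the widest of the 10. Against siControl RAS cells, each add-back had 6 of the 10 lower and 2 higher, where 7.14% and 6.27% of all genes were called lower and higher with R298P and 6.67% and 6.32% with wild type. With R298P the MMP2 call among the lower genes was lost in 8 of 12 alternatives, as given above for MMP2. Libraries did not overlap for 8 of the 10 with R298P and 9 with wild type, against 29.9% and 28.7% of all genes. Relative to siControl RAS cells MMP1 was log2 -0.71 with R298P and -0.83 with wild type, MMP3 -1.41 with R298P and -1.53 with wild type, and MMP10 -1.94 with R298P and -2.12 with wild type, all called by edgeR.

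Each transcript yields about 1 tag in this method, whatever its length, so tags of different genes were summed without a correction for length. The 5 MMPs summed to 1603 to 1749 CPM in R298P add-back, 1491 to 1687 CPM in wild-type add-back, 1346 to 1417 CPM in knockdown, 2648 to 2788 CPM in siControl RAS and 610 to 639 CPM in control libraries. The 3 TIMPs summed to 2890 to 2964 CPM in R298P add-back, 2738 to 3087 CPM in wild-type add-back, 2921 to 3102 CPM in knockdown, 3476 to 3552 CPM in siControl RAS and 2476 to 2529 CPM in control libraries. TIMP tags outnumbered MMP tags in every library, and the margin was narrowest with RAS. The number of MMP tags per TIMP tag was 0.571 ± 0.0185 in R298P add-back, 0.534 ± 0.0208 in wild-type add-back, 0.462 ± 0.00609 in knockdown, 0.768 ± 0.015 in siControl RAS and 0.251 ± 0.0089 in control cells (SD, n = 3 each).

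**Figure D4:**
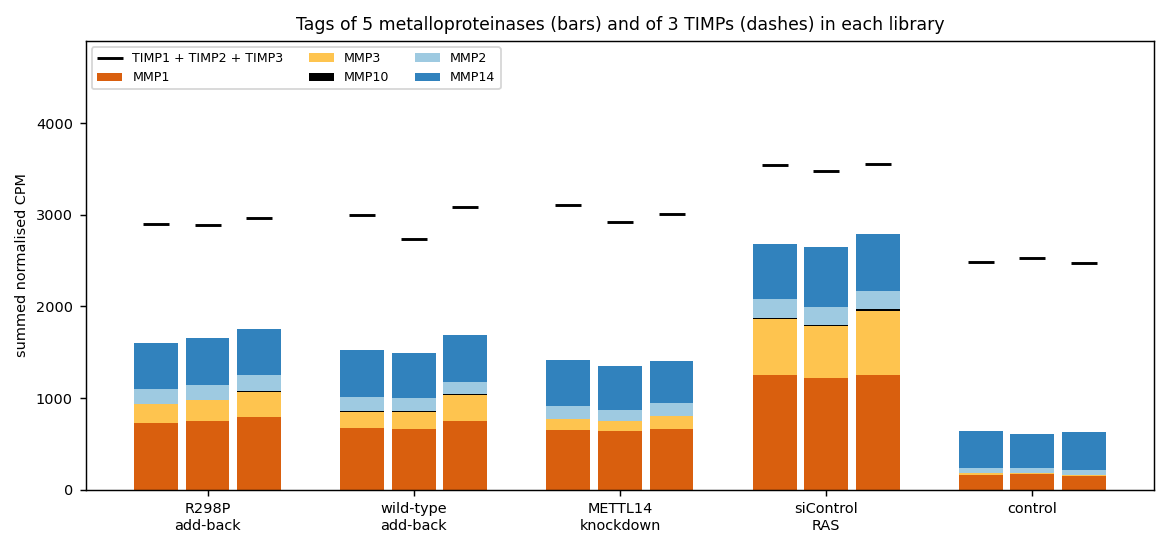
Summed normalised CPM of MMP1, MMP3, MMP10, MMP2 and MMP14 (stacked bars) and of TIMP1, TIMP2 and TIMP3 (dashes) in each library of the 5 groups. Bars are tallest in siControl RAS libraries (2648 to 2788 CPM) and shortest in control libraries (610 to 639 CPM), and the dashes lie above the bars throughout.

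Within the MMP tags the makeup differed between groups. MMP14 made up 28.7% to 31.3% in R298P add-back, 30.2% to 33.8% in wild-type add-back, 33.1% to 35.5% in knockdown, 22.3% to 24.6% in siControl RAS and 61.5% to 65.3% in control libraries. MMP1 made up 44.3% to 47.2% in the RAS groups and 23.2% to 27.2% in control libraries. MMP3 made up 12.8% to 15.6% in R298P add-back, 11.4% to 16.8% in wild-type add-back, 8.34% to 10.4% in knockdown, 21.2% to 25.3% in siControl RAS and 2.95% to 4.01% in control libraries. Control cells thus made mostly MMP14 transcripts among these 5, and in RAS cells MMP1 had the largest share, with a share of MMP3 that was lowest of the RAS groups in the knockdown.

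Ratios of tags within a library, which no scaling between libraries can move, were compared with an exact two-sided permutation test, for which 3 libraries against 3 allow no p below 0.1. The log2 ratio of MMP3 to MMP1 was -2.35 ± 0.161 in knockdown and -0.999 ± 0.153 in siControl RAS cells, a difference of -1.35 with no overlap (exact p = 0.1, and 0.145 adjusted over 16 tests). In siControl RAS against control cells MMP3 gained 1.89 log2 units on MMP1, and in R298P and wild-type add-back against knockdown cells 0.65 and 0.62 (exact p = 0.1 each). The ratio of MMP1 to TIMP1 differed by 2.20 for RAS and -0.44 for the knockdown (exact p = 0.1 each), and by 0.055 and 0.13 for the R298P and wild-type add-backs (exact p = 0.4 and 0.7). That of MMP3 to TIMP1 differed by 4.09, -1.79, 0.70 and 0.76 in the same comparisons, all without overlap (exact p = 0.1 each). For TIMP3 to TIMP1 the differences were -0.21 for RAS and 0.17 for the knockdown (exact p = 0.6 each), -0.32 for R298P (exact p = 0.1) and -0.011 for wild type (exact p = 1). Leaving out siControl RAS library 3 turned the knockdown value to -0.017.

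For 4 of the genes, the transcripts whose levels ran most alike over the 15 libraries were found by Pearson's r of log2(CPM + 1) among 9557 genes with a mean of at least 10 CPM in some group. All 5 groups enter these values, so r mainly follows the group means, and it is given as a description. For MMP1 they were NRG1 (r = 0.997), a growth factor ligand, C11orf96 (0.996), CDCP1 (0.995), a membrane glycoprotein, MME (0.994), the membrane metallopeptidase neprilysin, and SOX4 (0.993), a transcription factor. For MMP3 they were CSF3 (0.991), which encodes the cytokine G-CSF, COL8A1 (0.991), a collagen chain, TGFBI (0.990), a matrix protein, RIPOR3-AS1 (0.990) and PGRMC2 (0.986). The values were lower for MMP10, with IGFBP4 (0.949), PGK1 (0.948), RGS5 (0.942), RNF145 (0.937) and GDNF (0.927). MMP10 had 6, 0 and 4 counts in control and 8, 3 and 6 in knockdown libraries, and whether such low counts lowered its r was not tested. The values were also lower for TIMP3, with ARRDC3 (0.962), TENT5A (0.955), PRKAA2 (0.951), CEBPB (0.947) and MIER3 (0.941).

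Other genes of the same families and of their activation were read from lists. Of 18 further MMP genes, 16 were matched to an identifier and 5 of these passed the low-count filter; MMP9 had 14 counts and MMP7 17 counts over all libraries, and MMP13, MMP20 and MMP27 had 0. Among the 5, MMP11 rose (log2 1.76, edgeR adjusted p = 0.0499) and MMP16, a membrane MMP, fell with RAS (log2 -0.64, edgeR adjusted p = 9.59e-05). The size for MMP11 rests on 14 control counts. In the knockdown edgeR called 0 of the 5, with 0 at an unadjusted p under 0.05 in either direction and 0 by DESeq2. Of the 4 other inhibitors RAS raised 3, A2M (log2 1.28), the membrane-anchored inhibitor RECK (0.98) and TFPI2 (0.38), with 1 not called. TFPI2 fell in the knockdown to 311 CPM, against 665 CPM in siControl RAS cells (log2 -1.10, edgeR adjusted p = 5.24e-13), and the other 3 were not called.

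Of the plasmin and proprotein convertase genes that activate MMP precursors, 11 of 12 were tested. RAS raised 7 and lowered 3 of them (median log2 0.77), including rises of PCSK5 (2.83), SERPINB2 (2.12), an inhibitor of urokinase, and PLAT (1.93), tissue plasminogen activator, and falls that included PCSK7 (-0.65) and PLAUR (-0.34), the urokinase receptor. In the knockdown 5 were lower and none was higher (median log2 -0.43). SERPINB2 had 29.01 CPM in knockdown and 124 CPM in siControl RAS cells (log2 -2.08). SERPINE2 had 457 CPM in knockdown and 1547 CPM in siControl RAS cells (-1.76). PCSK5 had 9.50 CPM in knockdown and 19.2 CPM in siControl RAS cells (-1.001). Neither add-back gave a call in this list by edgeR, although 3 were higher at an unadjusted p under 0.05 with each and DESeq2 called 1 higher with each, SERPINB2 with R298P and SERPINE2 with wild type.

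Among other ADAMTS genes, 11 of 18 were tested; 6 rose and 1 fell with RAS (median log2 1.75), led by ADAMTS8 (5.49), ADAMTS5 (3.19), which cuts aggrecan, and ADAMTS9 (2.66), whereas ADAMTS15 fell (-1.78). ADAMTS1 thus fell where 6 relatives rose. The sizes for ADAMTS8 and ADAMTS9 rest on 15 and 11 control counts, and that for ADAMTS15 on 24 siControl RAS counts. In the knockdown 2 of the list were lower, ADAMTS6 (log2 -1.01) and ADAMTS5 (-0.80), and 2 were higher, ADAMTS12 (0.47) and ADAMTS19. The siControl RAS libraries held too few ADAMTS19 counts for a fold (median of the list 0.012). Among other ADAM genes, 8 of 10 were tested. With RAS 6 rose, including ADAM28 (3.90), ADAM12 (2.54) and ADAM19 (1.80), and ADAM15 fell (-0.39), with a median of 1.02. The size for ADAM28 rests on 4 control counts. ADAM19 fell in the knockdown to 208 CPM, against 378 CPM in siControl RAS cells (log2 -0.87), and rose over knockdown in both add-backs, to 311 CPM with R298P (log2 0.58, edgeR adjusted p = 7.29e-06) and 272 CPM with wild type (log2 0.39, edgeR adjusted p = 0.00455). ADAM10, the closest relative of ADAM17, rose with RAS (0.31) and again with the knockdown (0.31), as did ADAM9 (0.76 and 0.26). The ADAM10 libraries of knockdown and siControl RAS cells overlapped, and DESeq2 did not call ADAM10 in the knockdown.

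The partners that carry ADAM17 to the cell surface changed with RAS in both directions: RHBDF2 (log2 1.34) and RHBDF1 (1.00) rose and FRMD8 (-0.75) fell, and edgeR called 0 of the 3 in the knockdown, with 0 at an unadjusted p under 0.05 and 0 by DESeq2. Of 16 genes for substrates that ADAM17 sheds, 13 were tested; 9 rose and 2 fell with RAS (median log2 1.08), with AREG at 6.98 and the adhesion molecule ICAM1 at 4.80, and SDC1 at -1.48 and HBEGF at -0.80. In the knockdown 5 fell and 2 rose (median -0.080). VCAM1, an adhesion molecule, rose to 19.2 CPM in knockdown, against 2.88 CPM in siControl RAS cells (log2 2.71), and SDC1, a cell-surface proteoglycan, to 37.5 CPM in knockdown, against 27.1 CPM in siControl RAS cells (0.47), where libraries overlapped and DESeq2 made no call. AREG, an EGF-receptor ligand, had 40.8 CPM in knockdown and 652 CPM in siControl RAS cells (log2 -3.99), EREG 57.6 CPM in knockdown and 224 CPM in siControl RAS cells (-1.97), and TNFRSF1B 19.9 CPM in knockdown and 46.6 CPM in siControl RAS cells (-1.23), while ADAM17 itself was not called. With R298P against knockdown, AREG rose (log2 0.98, edgeR adjusted p = 0.00154) and SDC4 fell (-0.32, edgeR adjusted p = 0.00447). With wild type against knockdown edgeR called 0 of the 13, with 3 higher and 1 lower at an unadjusted p under 0.05, and DESeq2 called AREG and VCAM1 higher. AREG had 80.8 CPM with R298P and 63.8 CPM with wild type, SDC4 351 CPM with R298P and 389 CPM with wild type, against 440 CPM of SDC4 in knockdown cells, and neither gene overlapped with knockdown libraries in either add-back. Between R298P and wild-type add-back cells edgeR called 0 of the 13 and DESeq2 0, with 1 higher and 1 lower at an unadjusted p under 0.05.

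The matrix genes whose products MMPs cut mostly rose with RAS and fell in the knockdown. Of these 18 genes, 5 are also among the fibroblast markers, whose sums are given above. All 18 were tested, and with RAS 16 rose and ELN, elastin, fell (median log2 1.51), led by LUM (4.21), TNC (4.11) and COL3A1 (3.23). In the knockdown 15 of 18 fell and none rose (median -0.53), with LUM at -1.33, VCAN at -1.25 and FN1, fibronectin, at -1.15. Against knockdown, 7 rose with R298P (median 0.33), led by COL4A1 (0.50), COL4A2 (0.50) and COL5A1 (0.39), and 6 with wild type (median 0.24), led by THBS1 (0.40), COL4A1 (0.34) and COL1A1 (0.33). Of 12 genes for AP-1 and ETS transcription factors, families known to act on MMP promoters, 6 rose and 2 fell with RAS (median 0.73). The rises included FOS at 6.26, FOSB at 4.45 and JUNB at 2.67, and the falls were FOSL1 at -1.61 and JUN at -0.45. FOS and FOSB had 1221 and 405 counts over all libraries, so the sizes of their rises rest on few control counts. In the knockdown 6 fell and 1 rose (median -0.49), with FOS at -1.66, JUNB at -1.35 and ETV1 at -0.61, and ETS1 at 0.47. No AP-1 or ETS gene was called in either add-back by edgeR, with 1 higher at an unadjusted p under 0.05 for R298P and 3 for wild type, and 0 by DESeq2 in both.

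**Figure D5:**
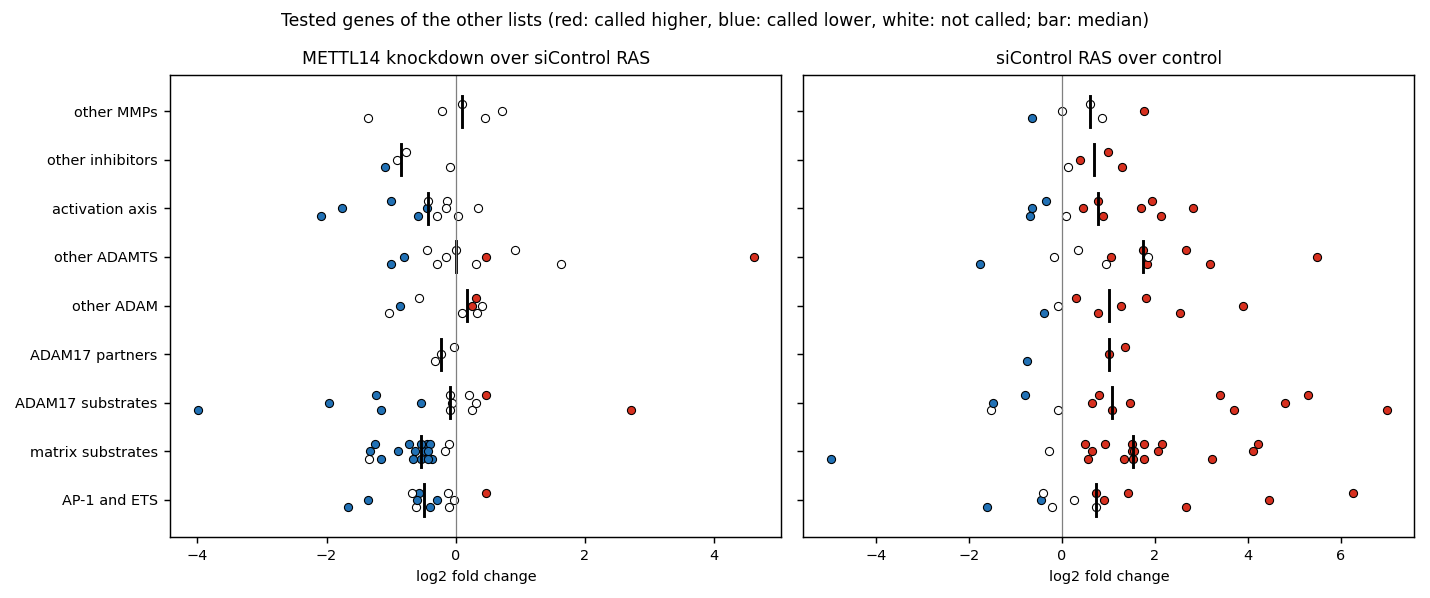
Fitted log2 fold change of the tested genes of each list for knockdown over siControl RAS cells (left) and siControl RAS over control cells (right); red points were called higher, blue lower, white not called, and bars are list medians. The matrix genes lie mostly above 0 with RAS (median 1.51) and below 0 in the knockdown (median -0.53).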

How the data were processed

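Counts per Ensembl gene, not normalised, were deposited by the authors for 15 QuantSeq 3′ end libraries, per the labels' protocols. The submitters' processing notes name Bowtie2, RSEM 1.2.12 and hg19, with no role for each; no source used here gives strand use or the assignment of shared reads. Symbols were matched by Ensembl identifier (52301 of 57736 have one); the annotation at hand is of another build, so gene coordinates are left out. In the labels the genotype is called knockout or knock-in, but their protocols, which were followed, describe siRNA and lentivirus. All libraries were fitted in 1 model with 5 group coefficients in edgeR 4.0.16 (R 4.3.3), with TMM scaling and the default expression filter. The robust quasi-likelihood test of edgeR was two-sided, with 10 residual degrees of freedom. The fit was also run on simulated counts with the same spread for all genes, which cannot check it for genes of unlike spread. Genes were called at an adjusted p under 0.05 over 13516 genes, which hold 99.8% of the counts. The biological coefficient of variation was 16.7%. Intervals and SEs come from the fit. Tag ratios used counts plus 0.5. Alternatives were RLE and upper-quartile scaling, no filter, a replicate block, fits on the 2 groups compared, DESeq2 1.42.0 and each library left out. Replicate numbers were taken as unpaired. The members and lists were chosen with earlier results of these data known. Named were the 10 members in every comparison, METTL14 and HRAS, up to 3 called genes per direction from each list, and the 5 most alike transcripts of 4 members; ADAM9, ADAM10, MMP7, MMP9 and genes at 0 were added to these after their values were seen.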

Additional observations from a re-analysis of the deposited data

How the results depend on the processing

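Of 957 recomputed differences of the 10 genes, 890 kept their direction and side of the threshold, 23 lost and 8 gained a call, and 36 changed sign, all of the last in differences that were not called. All called differences kept their sign. Genes called higher in wild-type add-back over knockdown went to 1 with no filter, 1 with the replicate block and 1 with DESeq2, against 0. With R298P over knockdown the count was 1 in a fit on those groups alone, 4 with DESeq2 and 0 to 2 with a library left out, against 2, and the count lower was 0 to 1, against 1. With R298P over siControl RAS the count higher was 1 to 2, against 2, and the call of MMP2 as lower was lost in 8 of 12 alternatives. Replicate numbers share no stated source, and deviations of same-numbered libraries from their group means correlated at -0.054 to 0.068 over 30 pairs. With the replicate block MMP3 was called over knockdown with R298P (edgeR adjusted p = 0.000606), where 3 genes were then higher, and with wild type (0.00427), and no other call of the 10 changed.

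ADAM17 changed sign most often. For knockdown over siControl RAS it was log2 0.029 with upper-quartile scaling, 0.0027 with no filter, 0.0076 in a fit on those groups alone and -0.13 to 0.10 with a library left out. For wild-type add-back over knockdown it was -0.0026 with upper-quartile scaling, -0.0024 in the fit on those groups and -0.10 to 0.12 with a library left out. For wild type over siControl RAS it was 0.026 with upper-quartile scaling, 0.0031 with no filter, 0.0068 with the replicate block, 0.0053 in the fit on those groups and -0.12 to 0.10 with a library left out. R298P gave -0.14 to 0.080 over knockdown, -0.11 to 0.020 over wild type and -0.16 to 0.065 over siControl RAS.

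With a library left out, R298P over wild type gave -0.0093 to 0.37 for MMP3, -0.15 to 0.57 for MMP10, -0.028 to 0.0027 for MMP14 and -0.012 to 0.039 for TIMP2. TIMP2 gave -0.075 to 0.061 for R298P and -0.093 to 0.043 for wild type over knockdown, and TIMP1 -0.15 to 0.16 for wild type over knockdown. The ratio of MMP1 to TIMP1 gave -0.025 to 0.21 for wild type over knockdown, and that of TIMP3 to TIMP1 -0.017 to 0.34 for knockdown over siControl RAS and -0.20 to 0.12 for wild type over knockdown. The cause was not tested.

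Over all genes, the count called higher in wild-type add-back over knockdown was 44, and 73 with DESeq2 and 25 to 29 without a wild-type library. For R298P over knockdown it was 73, with 75 lower, and 47, with 43 to 46 lower, without R298P library 2 or 3. For R298P over wild type it was 1, and 7 with no filter, 5 with DESeq2, 2 in the fit on those groups and 0 with the block, with 2 lower, and 7 with no filter and 8 with DESeq2. Depth limits MMP10 most.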
